A study of Mus musculus with 8 samples.

Results

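Galectins are lectins that bind β-galactoside sugars, and annexins are proteins that bind acidic phospholipids of membranes in the presence of calcium. Transcripts of 10 genes of these families were followed in naïve and GL261 tumour-bearing mouse brains: the galectin genes Lgals1, Lgals3 and Lgals9, the galectin-3-binding protein gene Lgals3bp, and the annexin genes Anxa1, Anxa2, Anxa3, Anxa4, Anxa5 and Anxa6. The genes were listed by name and not ranked by a measured value, but earlier results of these data were known when they were chosen. They are 10 of the 32502 genes found in any of the 8 count tables. All 10 were detected, and how many entered each test is given with the test. GL261 is a mouse glioma line that grows in immunocompetent mice of its own strain. Single-cell suspensions of naïve brain and of the tumour core were profiled by Drop-seq, a droplet method that counts unique molecular identifiers (UMIs) at the 3′ ends of transcripts. The 8 groups were naïve, early (5 to 10 mm3), intermediate (20 to 25 mm3) and late (30 to 35 mm3) stage, each in wild-type (WT; Irg1/Acod1 +/+) and Acod1 knock-out (KO; Irg1/Acod1 -/-) mice, and each group held 1 library.

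All animals were of the C57BL/6 strain by their labels (C57BL/6N by the study's methods), and the tumour-bearing mice had received 500 GL261 cells, in the right striatum by the labels and in the frontal cortex by the methods. The title of each naïve library named 2 sample codes, without saying whether they stand for 2 mice. The study counts 1 biological replicate per condition, and each tumour library came from 1 mouse. By the methods, the sex of the mouse differed between WT and KO at the early and intermediate stages, so that genotype and sex cannot be told apart there. On build GRCm38 (GENCODE M21), the genes lie at chr15:78926725-78930465 (Lgals1), chr14:47367751-47386160 (Lgals3), chr11:118392751-118402092 (Lgals3bp), chr11:78962974-78984946 (Lgals9), chr19:20373428-20390944 (Anxa1), chr9:69453620-69491795 (Anxa2), chr5:96793339-96845966 (Anxa3), chr6:86736840-86793584 (Anxa4), chr3:36448923-36475894 (Anxa5) and chr11:54979108-55033445 (Anxa6). No group had a biological replicate. The comparison of 6 tumour-bearing with 2 naïve libraries pooled both genotypes and all stages, the comparison of KO with WT took the 3 stages as replicates, and p-values measure the spread between these libraries.

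Galectins are made in the cytosol, leave the cell without a signal peptide and cross-link glycoproteins at the surface of neighbouring cells. Among lymphocytes and myeloid cells they are known for damping activation, and in glioma they are known from both the malignant cells and the macrophages. Annexins act at membranes, in repair, vesicle traffic and the binding of phosphatidylserine on dying cells, and several of them work in complexes with small S100 proteins.

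After the filters, 5698 of 8000 barcodes were retained as cells, with a median of 2597.5 to 5637.5 UMIs per cell and library, and no pair of libraries shared more than 10 barcodes. The libraries held 2885345 to 9950713 UMIs in all. Clusters were named from fixed markers with the 10 genes left out of the clustering, so that their levels did not decide a cell's class. Levels are given as CPM, the UMIs of a gene per 1000000 UMIs of a class in a library. The WT intermediate library stood apart, with 926 tumour cells among its 1000 cells and 5 microglia-like, 16 macrophage-like, 3 endothelial and 3 astrocyte cells. Barcodes ranked 2001 to 3000 in each library, which lie below the cells, are called low-count barcodes here and were taken as a measure of RNA outside cells. The targeted gene Acod1, which encodes the enzyme that makes itaconate in activated macrophages, counted 64, 2 and 3 UMIs in microglia-like cells of the WT early, intermediate and late libraries and 0, 1 and 0 in those of the KO libraries, but 72, 3 and 1 against 27, 5 and 33 in macrophage-like cells. The methods describe a cassette inserted within that gene, and 3′ tags do not check such a label, so WT and KO name the libraries as labelled throughout.

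The plot of levels by cell class shows where each gene was counted. Lgals1, a galectin that binds glycans of T cells, was highest in the class named from mural and fibroblast markers in the tumour-bearing libraries, at a median of 4557 CPM over the 2 libraries with at least 5 such cells, followed by tumour cells at 2912 (range 1935 to 3141, n = 6 libraries), lymphocytes at 2098, macrophage-like cells at 1161 and dendritic-like cells at 1067. That class was small, with 11 (KO intermediate) and 5 (WT late) cells there and 5 (WT) and 9 (KO) in the naïve libraries. The class was led by fibroblast genes such as Col1a2 and Dcn, and the pericyte markers Kcnj8 and Abcc9 were at 0 in it in both conditions. It did not overlap tumour cells, whereas each of the other neighbours in this order overlapped the next. In naïve libraries Lgals1 was highest in the mural and fibroblast class, at 928, and in choroid plexus epithelial-like cells, at 439, and no other naïve class had a median above 55.2.

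Lgals3, whose product carries a collagen-like tail and is abundant in macrophages, had another order. Macrophage-like cells came first with a median of 1625 CPM (range 961 to 4459, n = 6), above dendritic-like cells at 755 (310.4 to 956, n = 5) without overlap. Tumour cells at 636, lymphocytes at 326 (191 to 1629, n = 5) and microglia-like cells at 219.9 followed with overlapping ranges. The highest lymphocyte value lay within the range of macrophage-like cells, but it came from the WT intermediate library, with 7 lymphocytes. Lymphocyte sums also held macrophage markers, summed, at 1591 to 4635 CPM, and the part of these was not tested. In naïve brain the highest medians were those of ciliated ependymal-like cells, at 141, and of the mural and fibroblast class, at 104 from only 4 UMIs. The gene had no UMI in naïve endothelial cells, oligodendrocytes, neuroblast-like or neuron-like cells. At counting error alone, 0 UMIs allowed up to 4.75 CPM in naïve endothelial cells and 6.16 in naïve oligodendrocytes, taking 3 counts over both libraries as the limit.

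Lgals3bp encodes a secreted scavenger-receptor glycoprotein that binds galectin-3. It was led by microglia-like cells of tumour-bearing libraries, at a median of 855 (519 to 1073, n = 6), and the next class, macrophage-like cells at 358 (298 to 495, n = 6), did not reach that range. Astrocytes, with a lower median of 264 (42.6 to 583, n = 5), did reach it. Dendritic-like cells stood at only 22.2. Lgals9, a galectin with a pair of carbohydrate-binding domains in one chain and the ligand of the T-cell receptor HAVCR2, was highest in microglia-like cells in both conditions, with medians of 219.6 in naïve and 398 in tumour-bearing libraries, and then in endothelial cells, at 133 and 293. The ranges of these leading classes overlapped in tumour-bearing libraries and not in naïve ones.

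Of the annexins, Anxa3, which is known from myeloid cells, was led by the same classes in both conditions: microglia-like cells at 421 and endothelial cells at 412 in naïve brain, and endothelial cells at 558 and microglia-like cells at 360.3 in tumour-bearing brain, with overlapping ranges each time. Tumour cells held 10.1 (3.06 to 14.9). Anxa1, the ligand of formyl peptide receptors that limits neutrophil entry, reached 1289.7 in the mural and fibroblast class and 297 in tumour cells, without overlap. Anxa2, which binds plasminogen and its activator at the cell surface together with S100A10, was led by the mural and fibroblast class (1466), dendritic-like cells (692), lymphocytes (680.2) and endothelial cells (549), each overlapping the next. Anxa4, an annexin of epithelia, was led by macrophage-like cells (153), and Anxa5, which binds exposed phosphatidylserine, by the mural and fibroblast class (1122) and macrophage-like cells (502). Anxa6, with a duplicated annexin core, was led by the mural and fibroblast class (169) and lymphocytes (104), and its ranges overlapped for every pair of neighbours in tumour-bearing libraries. In naïve brain Anxa5 and Anxa2 were highest in ciliated ependymal-like cells, at 1324 and 611.

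**Figure D1:**
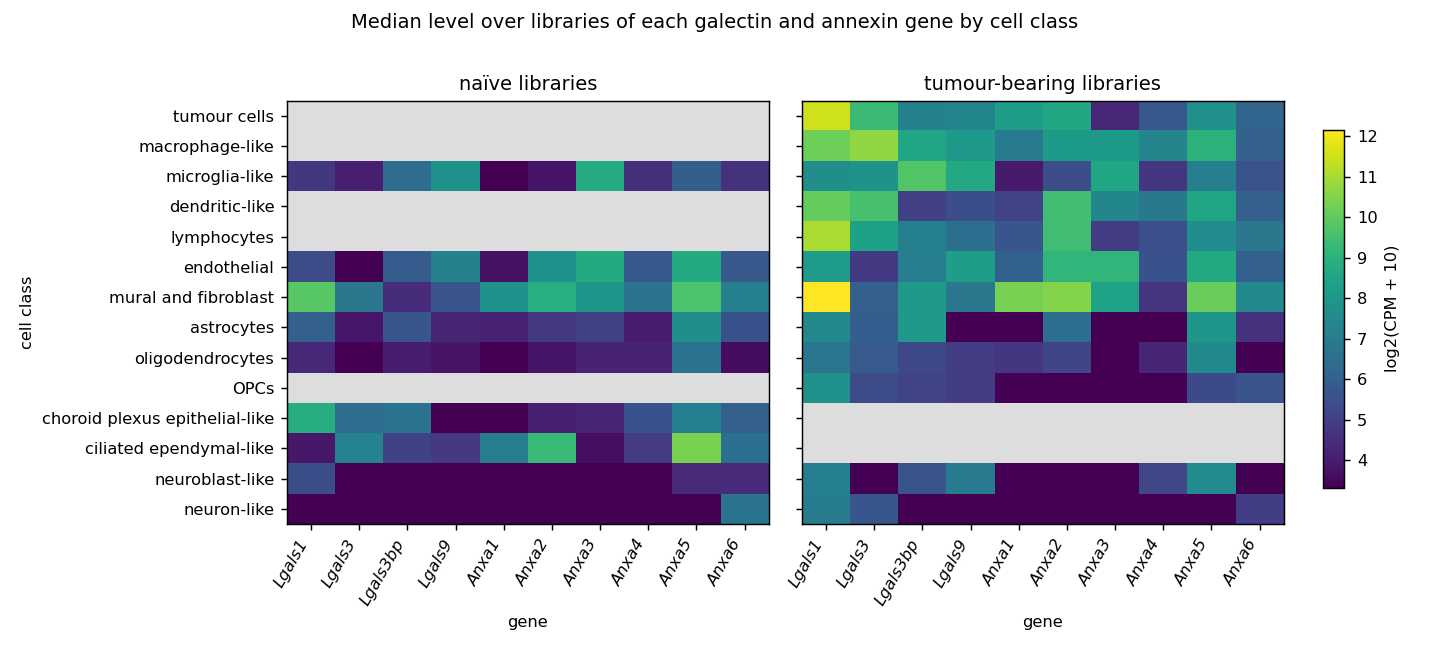
Colour shows log2(CPM + 10) of the median over libraries for each of the 10 genes (columns) in each of 14 cell classes (rows), for naïve libraries on the left and tumour-bearing libraries on the right; grey marks classes with fewer than 2 libraries of at least 5 cells. Lgals1 is brightest in the mural and fibroblast class (4557) and tumour cells (2912), Lgals3 in macrophage-like cells (1625) and Lgals3bp in microglia-like cells of tumour-bearing libraries (855).

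Microglia-like cells were compared between naïve and tumour-bearing libraries to ask which of the genes differ in the brain's own macrophages beside a tumour. Lgals3bp, Lgals3, Lgals1 and Anxa5 rose, Lgals9 and Anxa3 did not pass the test, and Anxa1, Anxa2, Anxa4 and Anxa6 had too few UMIs to be tested. The 4 called among the 6 tested compare with 16.0% called among all 3262 genes tested. Lgals3bp stood at 80.5 CPM in the WT naïve and 80.4 in the KO naïve library, and at 519 to 1073 with a median of 855 in the 6 tumour-bearing libraries. All 6 lay above both naïve libraries, and the fitted log2 fold change was 3.40 ± 0.42 (SE), or 10.6-fold (edgeR quasi-likelihood test, adjusted p = 5.51e-05).

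Lgals3 stood at 10.1 and 3.49 in the WT and KO naïve libraries and at 74.2, 219.9 and 395 as lowest, median and highest value of the tumour-bearing libraries, a log2 fold change of 5.12 ± 0.88 (adjusted p = 0.000769). The groups did not overlap, although the naïve counts were only 3 UMIs in all against 173 in tumour-bearing libraries. Lgals1 stood at 20.1 and 14.0 in the naïve and at 40.5, 202 and 507 in the tumour-bearing libraries, a log2 fold change of 3.67 ± 0.79 (adjusted p = 0.00401), again without overlap. Anxa5 stood at 40.3 and 66.4 against 57.7, 128 and 175, a log2 fold change of 1.41 ± 0.42 (adjusted p = 0.0285). For Anxa5 the groups overlapped, since the WT intermediate library lay below the KO naïve library.

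Lgals9 stood at 191 and 248 in the naïve and at 210.5, 398 and 486 in the tumour-bearing libraries, with a log2 fold change of 0.73 ± 0.32 that did not pass the test (adjusted p = 0.129). Anxa3 stood at 362 and 479 against 158, 360.3 and 466, with a log2 fold change of -0.24 ± 0.35 (adjusted p = 0.690). Of the untested genes, Anxa6 had 14.0 to 15.1 in naïve and 20.2 to 98.8 in tumour-bearing libraries without overlap, from 7 and 27 UMIs. The median log2 fold change of the 6 tested genes was 2.41, beside 0.00 over all genes tested. Each called gene lay below the filter on low counts in both naïve libraries and entered the test only through the tumour-bearing ones. The share called and this median therefore depend on that filter and are no support for a rise of the set.

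With 2 naïve libraries, these calls leaned on each of them: without the WT naïve library 2 of the genes were called, and without the KO naïve library 1. Lgals3bp passed in each of 18 alternative settings, with log2 fold changes of 3.20 to 3.53. Lgals1 was lost without the WT naïve library (adjusted p = 0.0935) or without the KO naïve library (0.110), and Lgals3 without the KO naïve library (0.0560). Anxa5 was lost in 6 of 18 settings, with DESeq2, without a filter on low counts, and without the WT naïve, KO naïve, WT early or KO early library.

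Microglia-like cells of the naïve libraries lay mostly in 1 cluster of 195 naïve cells, and those of the tumour-bearing libraries (TAM I) in 2 other clusters of 85 and 78 cells. All 12 microglia markers were counted in both conditions, with summed levels of 35662 to 39566 CPM in naïve and 27178 to 32715 in tumour-bearing libraries. The summed level of 11 macrophage markers moved with the condition, from 538 and 574 to 2597 to 5876, with Chil3 at 0 in every tumour-bearing library. That of 10 tumour-cell markers moved from 85.6 and 87.3 to 111 to 466. Their part in the result was not tested.

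Among the 2 TAM I clusters, Lgals3bp was at 564 in the first and 1071 in the second, against 80.6 in the naïve cluster, and Lgals3 was at 68.1 and 360.1 against 2.12. Both clusters thus lay above the naïve cluster for these genes, the second by more. They also differed in depth, with medians of 2279 and 4959 UMIs per cell against 2293 in the naïve cluster. Each value pools the cells of a cluster over libraries, and the part of depth was not tested. Anxa3 was at 409 and 351, against 435 in the naïve cluster.

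RNA outside cells moved with the condition too, as the plot of microglia-like cells and low-count barcodes shows. In low-count barcodes Lgals1 stood at 38.3 and 63.1 in naïve and at 824 to 2569 in tumour-bearing libraries, and Lgals3 at 6.96 and 7.42 against 248 to 627. The Lgals1 level of microglia-like cells was 3.01% to 19.8% of the low-count barcodes' level in the same tumour-bearing library, and tumour-cell markers, summed, were at 5.14% to 23.4% of theirs. For Lgals3 that share was 12.8% to 154%. For Lgals3bp it was 390.2% to 1452%, so the level in microglia-like cells was higher than that of the RNA around them in each of the 6 libraries.

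Shares of cells with a UMI were compared after thinning each cell to 1500 UMIs. Lgals3bp was counted in 12.5% of 200 naïve (exact 95% binomial interval 8.26 to 17.9) and in 56.6% of 173 tumour-bearing microglia-like cells (48.9 to 64.1), and in 0 of 24 neuron-like cells of tumour-bearing libraries. Before thinning, the shares were 16.0% and 74.0%, at median depths of 2292 and 2937 UMIs, and 0% in neuron-like cells, at 3500.0. Lgals3 was counted in 0.50% of naïve and 19.7% of tumour-bearing microglia-like cells, beside 4.17% of neuron-like cells. Lgals1 was counted in 1.5% and 15.6%, beside 16.7% of neuron-like cells (4.74 to 37.4). In the naïve libraries neuron-like cells held 0 UMIs of it, from 8 (WT) and 5 (KO) cells. Whether neuron-like cells express the gene themselves was not tested. For Lgals1 the share in microglia-like cells was thus no higher than that in neuron-like cells, of which there were only 24. By CPM the order differed: as a percent of the low-count barcodes' level, Lgals1 was at 3.01% in microglia-like and 1.56% in neuron-like cells of the KO intermediate library, at 19.8% and 5.84% in the WT late library and at 17.0% and 7.24% in the KO late library, the only tumour-bearing libraries with at least 5 neuron-like cells. The part of free RNA in the Lgals1 difference was not tested. These intervals cover counting error only.

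**Figure D2:**
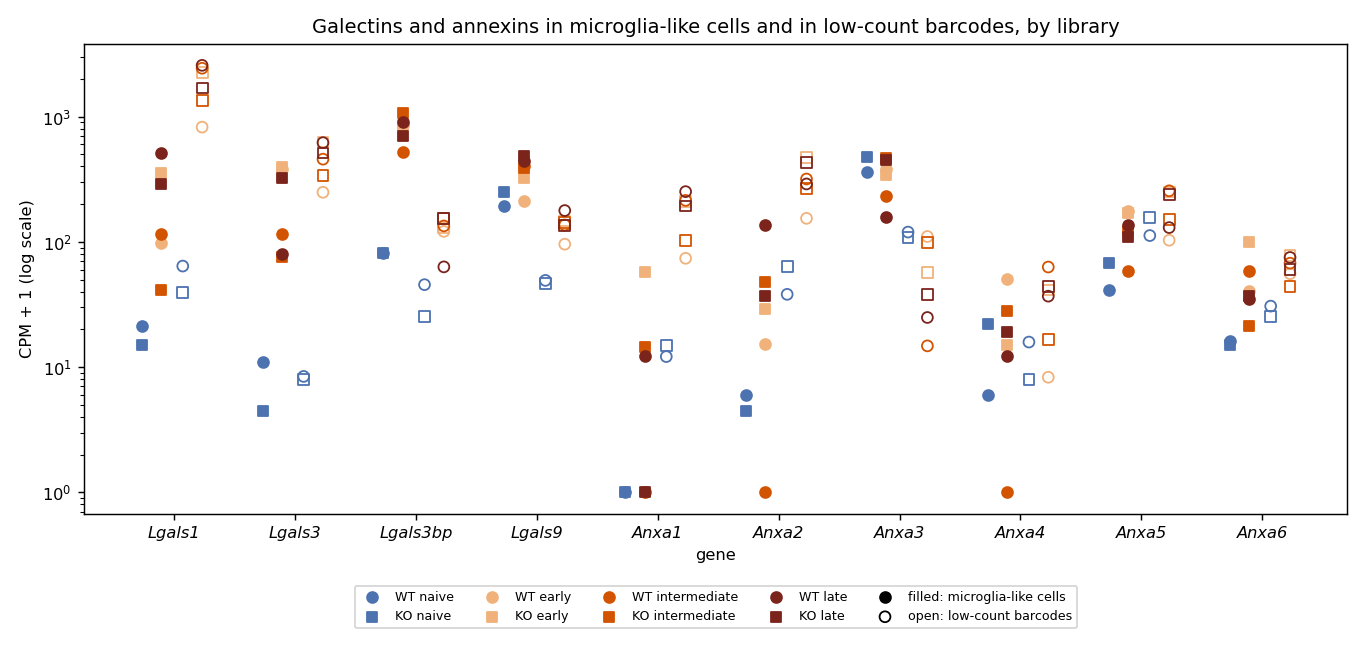
Points are CPM + 1 on a log scale for each gene, 1 point per library; filled symbols are microglia-like cells, open symbols low-count barcodes, circles WT, squares KO, blue naïve and orange to brown early to late tumours. Filled tumour-bearing points of Lgals3bp (519 to 1073) lie above the open ones, whereas those of Lgals1 (40.5 to 507) lie below the open ones (824 to 2569).

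**Figure D3:**
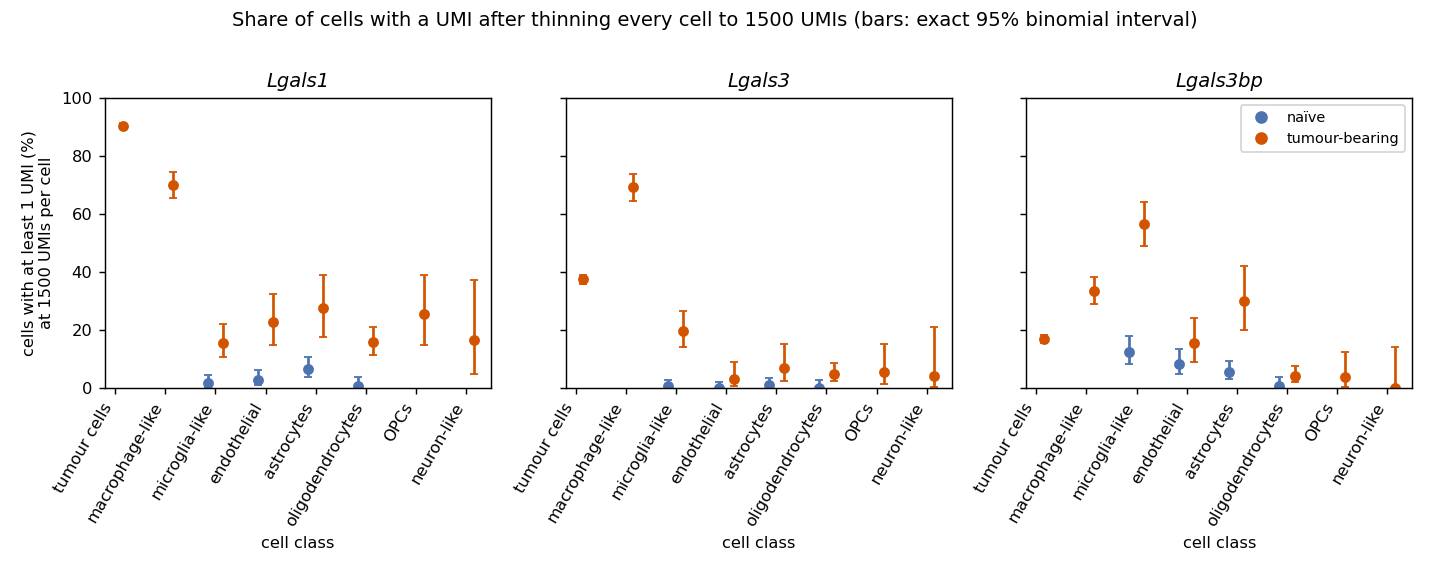
Points are the percent of cells with at least 1 UMI of Lgals1, Lgals3 or Lgals3bp after thinning to 1500 UMIs per cell, by cell class, in naïve (blue) and tumour-bearing (orange) libraries; bars are exact 95% binomial intervals over cells. Lgals1 reaches 90.4% of tumour cells and 16.7% of neuron-like cells, whereas Lgals3bp reaches 56.6% of microglia-like and 0% of neuron-like cells.

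Endothelial cells were compared between the 2 naïve and 5 tumour-bearing libraries, the WT intermediate library being left out with 3 cells. Lgals1, Anxa2 and Lgals9 rose, Anxa3 and Anxa5 did not pass, and the other 5 genes had too few UMIs to be tested. The 3 called of 5 tested stand beside 4.65% of all 1440 genes tested. Lgals1 was at 22.6 and 40.3 CPM in the WT and KO naïve libraries and at 278 (WT early), 458 (KO early), 172 (KO intermediate), 514 (WT late) and 83.8 (KO late), without overlap. The log2 fold change was 3.15 ± 0.51 (adjusted p = 0.000373), and Lgals1 passed in all 19 alternative settings.

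Anxa2 was at 197 and 233 in the naïve libraries and at 631, 549, 344, 1198 and 335 in the tumour-bearing libraries in the same order, a log2 fold change of 1.39 ± 0.36 (adjusted p = 0.0265). Lgals9 was at 116 and 149 against 282, 293, 478, 308 and 223, a log2 fold change of 1.22 ± 0.32 (adjusted p = 0.0281). For both genes each tumour-bearing library lay above both naïve ones. Anxa3 had a log2 fold change of 0.34 ± 0.30 (adjusted p = 0.663), and Anxa5 one of -0.02 ± 0.32 (adjusted p = 0.991), with 368 and 465 against 238 to 670.1. Lgals3bp, not tested here, was at 42.0 and 55.8 against 68.5 to 223 without overlap. The median of the 5 tested genes was 1.22, beside -0.03 over all genes tested. Lgals1 and Lgals9 lay below the filter on low counts in both naïve libraries and entered the test only through the tumour-bearing ones. The share called and this median depend on that filter here too.

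Without the WT naïve library 1 gene was called, and without the WT late library 5 were. The call of Anxa2 was lost without the WT naïve or KO early library, without a filter on low counts and with 500 genes per cell, and that of Lgals9 in 7 of 19 settings, among them without the WT naïve, KO naïve, WT early or KO intermediate library. All 11 endothelial markers were counted in both conditions. The summed level of 10 mural and fibroblast markers was 1669.9 and 3141 in naïve and 1117 to 7580.1 in tumour-bearing libraries. With mural-rich cells left out, the same number of genes, 3, was called. Rgs5, a pericyte gene, and the haemoglobin gene Hbb-bs were among the leading genes of the endothelial cluster. The summed level of 5 erythrocyte markers varied more widely, between 31 and 5966 CPM in naïve and between 0 and 44743 CPM in tumour-bearing libraries, and its part in the results was not tested.

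In tumour-bearing libraries the endothelial level of Lgals9 was 168% to 339% of that in low-count barcodes and the level of Anxa2 77.9% to 414%, while that of Lgals1 was 4.94% to 33.7%, beside 13% to 27.7% for summed tumour-cell markers. Naïve endothelial cells already held these markers at 307 and 394 CPM, against 250 to 782 in tumour-bearing libraries, so their sum does not measure tumour RNA alone. Lgals1 was counted in 22.7% of 97 thinned endothelial cells (14.8 to 32.3), with 41.8% before thinning at a median depth of 2866 UMIs, and in 16.7% of neuron-like cells (36% before thinning). These intervals overlapped. The shares for Lgals9 were 18.1% of 182 naïve and 40.2% of 97 tumour-bearing endothelial cells (33.2% and 56.1% before thinning), beside 0% of neuron-like cells.

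Promoter sequences are shown for Lgals9 and Anxa2, which rose together in endothelial cells. They are from RefSeq, build GRCm38.p6, run from 250 bases before to 50 bases after the gene's RefSeq start, and are written 5′ to 3′ on the gene's strand. This start differs from the GENCODE start in the coordinates given above, and the distances below are counted from it. Capitals mark matches, on either strand, to the core of the interferon-stimulated response element (GAAA, any 2 bases, GAAA) or to the AP-1 site (TGANTCA). Lgals9 lies at chr11:78984875-78985174 (minus strand) and Anxa2 at chr9:69453433-69453732 (plus strand).
Lgals9: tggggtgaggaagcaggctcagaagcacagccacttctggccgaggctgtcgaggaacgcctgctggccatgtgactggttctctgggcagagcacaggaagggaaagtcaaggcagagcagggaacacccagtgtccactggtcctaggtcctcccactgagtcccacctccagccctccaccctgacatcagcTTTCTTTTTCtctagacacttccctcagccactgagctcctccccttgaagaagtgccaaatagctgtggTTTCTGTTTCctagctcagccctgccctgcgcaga
Anxa2: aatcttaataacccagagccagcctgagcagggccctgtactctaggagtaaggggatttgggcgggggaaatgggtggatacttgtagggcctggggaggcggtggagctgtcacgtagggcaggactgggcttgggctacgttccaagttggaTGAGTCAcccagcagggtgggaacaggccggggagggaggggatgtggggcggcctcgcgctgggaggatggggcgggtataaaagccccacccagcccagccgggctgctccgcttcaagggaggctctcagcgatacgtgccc
Lgals9 held 2 matches to the response element core, 55 bases before and 15 bases after the start, and 3.44% of 32851 promoters of this length hold at least 1. Anxa2 held 1 match to the AP-1 site, 95 bases before the start, as 7.81% of promoters do. The motifs did not overlap, and the promoters of Lgals3, Lgals3bp, Anxa1, Anxa4 and Anxa5 held neither in this window. The windows of Lgals3 and Anxa1 lay wholly inside the GENCODE spans given above, so they do not cover the starts of those spans. Lgals1, Anxa3 and Anxa6 had no entry.

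In oligodendrocytes, the myelin-forming cells, 2 of the 10 genes could be tested. Lgals1 rose and Anxa5 did not pass, against 2.25% called among 2664 genes. Lgals1 was at 15.1 and 4.49 CPM in the naïve libraries and at 55.5, 101 and 352 as lowest, median and highest value of the 6 tumour-bearing libraries, a log2 fold change of 3.55 ± 0.81 (adjusted p = 0.0279). The groups did not overlap. The call was lost without the KO naïve (adjusted p = 0.421), KO early (0.0729) or KO late (0.0559) library. Anxa5 was at 79.5 and 108 against 65.9, 172 and 259, a log2 fold change of 0.72 ± 0.36 (adjusted p = 0.515).

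Of the genes not tested there, Lgals3 had 0 UMIs in naïve oligodendrocytes and 32 in those of the tumour-bearing libraries, at least 6.92-fold higher against 3 counts over both naïve libraries. The oligodendrocyte level of Lgals1 was 3.59% to 15.7%, that of Lgals3 7.98% to 16.9% and that of summed tumour-cell markers 2.69% to 20.5% of the level in low-count barcodes of the same library. These markers were at 30.3 and 98.7 CPM in naïve oligodendrocytes, against 62.4 to 431 in those of tumour-bearing libraries. Lgals1 was counted in 15.7% of 223 thinned oligodendrocytes (11.2 to 21.1), no more than in neuron-like cells (16.7%). Before thinning it was 25.1% at a median depth of 2729 UMIs. In the 3 libraries with both classes, Lgals1 as a percent of the low-count barcodes' level was 3.59% to 6.43% in oligodendrocytes and 1.56% to 7.24% in neuron-like cells, and Lgals3 was 7.98% to 11.6% and 6.06% to 12.4%. The part of free RNA in these differences was not tested.

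In astrocytes 3 genes were tested and 0 were called by edgeR, beside 1.31% of 686 genes, while 2 had an unadjusted p under 0.05 and DESeq2 called 1. The WT intermediate library was left out with 3 cells. Lgals3bp was at 29.5 and 53.7 in naïve and at 42.6 (WT early), 386 (KO early), 264 (KO intermediate), 163 (WT late) and 583 (KO late) in tumour-bearing libraries, a log2 fold change of 2.28 ± 0.75 (adjusted p = 0.222). Lgals1 had a log2 fold change of 2.07 ± 0.81 (adjusted p = 0.423) and Anxa5 one of 0.24 ± 0.43 (adjusted p = 0.973). For Lgals3bp 4 of the 5 tumour-bearing libraries lay above both naïve ones. It was the gene that DESeq2 called, and it was also called by edgeR with 500 genes per cell (adjusted p = 0.00949). The 5 tumour-bearing sums of astrocytes held 9 to 23 cells each, and their summed tumour-cell markers were at 25.8% to 109% of the level in low-count barcodes. Naïve astrocytes already held these markers at 439 and 585 CPM, against 625 to 3083 in tumour-bearing libraries. The sum therefore does not measure tumour RNA alone.

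**Figure D4:**
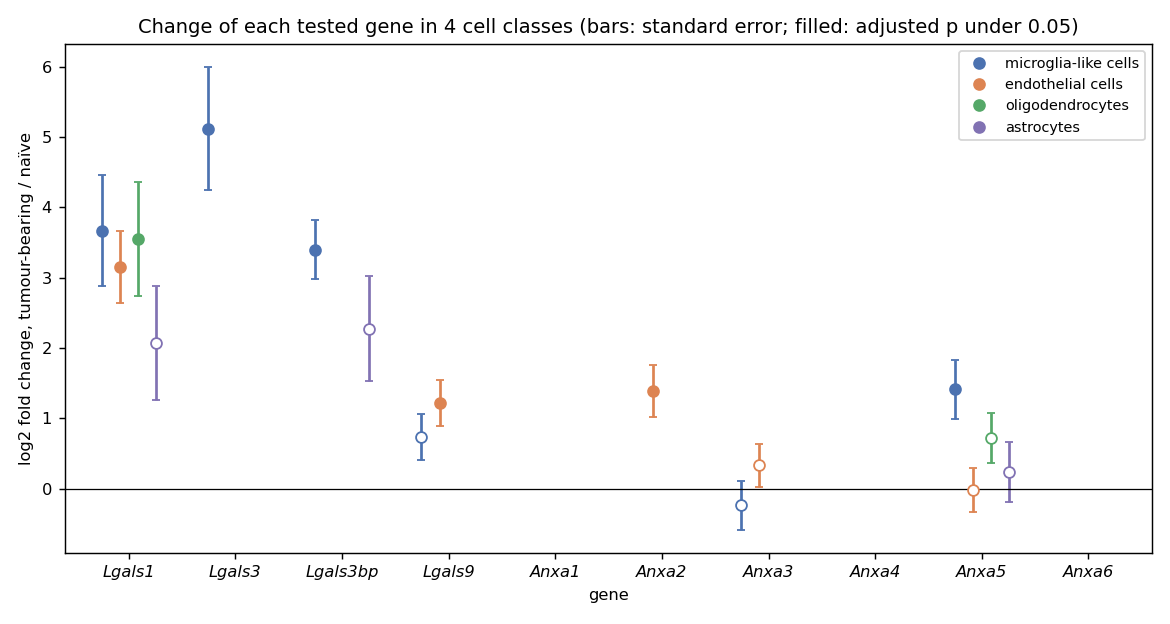
Points are fitted log2 fold changes, tumour-bearing over naïve, of each tested gene in 4 cell classes, with bars of 1 standard error; filled points passed an adjusted p of 0.05. Microglia-like cells show Lgals3 at 5.12, Lgals1 at 3.67 and Lgals3bp at 3.40, and genes without a point had too few UMIs to be tested.

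Whether the tumour-bearing difference itself differed between cell types was tested for each of 6 pairs of these 4 classes, in 40 tests of the 10 genes, of which 3 passed. The change of Lgals3bp was smaller in endothelial than in microglia-like cells by 2.01 ± 0.53 on the log2 scale (adjusted p = 0.00970), and so was that of Anxa5, by 1.47 ± 0.46 (adjusted p = 0.0432), with 4.44% of 4509 genes called in that pair. The change of Lgals1 was smaller in astrocytes than in microglia-like cells by 2.24 ± 0.70 (adjusted p = 0.0427), with 3.29% of 3126 genes called. For Lgals9, which passed in endothelial and not in microglia-like cells, the difference was 0.68 ± 0.40 (adjusted p = 0.439). No other pair gave a call by edgeR, with 4.18% of genes called for oligodendrocytes against microglia-like cells, 1.41% and 1.17% for oligodendrocytes and astrocytes against endothelial cells and 0.587% for astrocytes against oligodendrocytes. In these 4 pairs 1 of the tests had an unadjusted p under 0.05, and DESeq2 called 0 of the 40. The Lgals1 call was lost in 10 of 16 settings, among them with DESeq2's size factors in edgeR, which moved the median of all genes by 0.35 on the log2 scale in that pair and turned the share of higher calls from 33.0% to 72.3%. The Anxa5 and Lgals3bp calls were lost in 8 and 6 of 18.

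Macrophage-like and microglia-like cells of the tumour-bearing libraries, TAM II and TAM I, were compared within each of the 6 libraries. TAM II had more Lgals1, Lgals3, Anxa2, Anxa4 and Anxa5, and less Lgals3bp and Lgals9. These are 7 of the 8 genes tested, beside 30.1% of all 2361 genes. The plot of TAM pairs shows the values by library. Lgals3 was at 961, 1625 and 4459 CPM (lowest, median and highest) in TAM II and at 74.2, 219.9 and 395 in TAM I, a log2 fold change of 2.78 ± 0.37 (adjusted p = 3.25e-05). Lgals1 was at 711, 1161 and 2029 against 40.5, 202 and 507, a log2 fold change of 2.48 ± 0.27 (adjusted p = 5.16e-06). Both were higher in TAM II in 6 of 6 libraries, without overlap.

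The annexins that passed all rose in TAM II, in 6 of 6 libraries each. Anxa2 was at 74.6, 269 and 602 against 0, 32.1 and 135 (log2 fold change 2.35 ± 0.35, adjusted p = 0.000112), Anxa4 at 119, 153 and 236 against 0, 16.1 and 49.9 (2.21 ± 0.36, adjusted p = 0.000215), and Anxa5 at 379, 502 and 944 against 57.7, 128 and 175 (1.77 ± 0.23, adjusted p = 2.30e-05). Of these 3 annexins, TAM I and TAM II overlapped for Anxa2. Anxa1 was not tested, with 74.6 to 448 in TAM II and 0 to 56.5 in TAM I, and was also higher in 6 of 6 libraries. Anxa3 did not pass (log2 fold change -0.53 ± 0.24, adjusted p = 0.123) and was lower in TAM II in 4 of 6 libraries, and Anxa6 was not tested.

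Lgals3bp went the other way, at 298, 358 and 495 in TAM II and at 519, 855 and 1073 in TAM I, lower in 6 of 6 libraries and without overlap. Its log2 fold change was -1.27 ± 0.18 (adjusted p = 5.69e-05). Lgals9 was at 192, 264 and 343 against 210.5, 398 and 486, with overlap but lower in TAM II in 6 of 6 libraries, and its log2 fold change of -0.52 ± 0.16 (adjusted p = 0.0205) was lost in 6 of 15 alternative settings, among them DESeq2, Leiden clustering and leaving out the WT late, KO late or KO intermediate library. The other 6 calls passed in all 15 settings.

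TAM I and TAM II of a library share its RNA outside cells, and the TAM I sums are also those of the comparison with naïve microglia-like cells. TAM II sums held 10 to 12 of the 12 microglia markers, at 9197 to 11714 CPM in all, beside 27178 to 32715 in TAM I. The part of these in the results was not tested. TAM II lay in 3 clusters, of 216, 118 and 83 cells, in which Lgals3bp was at 291, 336 and 407 and Lgals3 at 1271, 1863 and 1568. Each of the 3 thus had less Lgals3bp and more Lgals3 than either TAM I cluster. Their median depths were 2403.5, 4864.5 and 10172 UMIs per cell in the same order, and the part of depth was not tested.

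**Figure D5:**
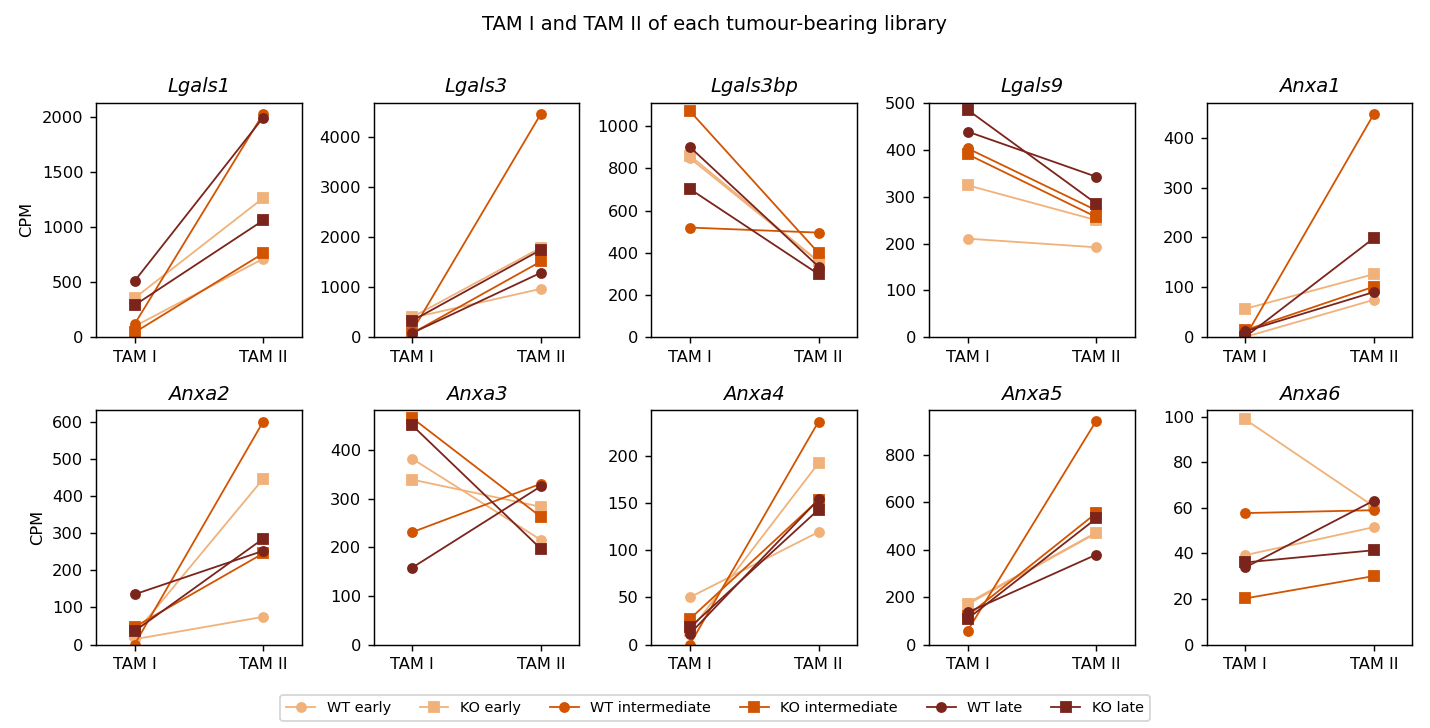
Each panel shows 1 gene in CPM, with a line joining TAM I and TAM II of the same tumour-bearing library; circles are WT, squares KO, and colour runs from early to late stage. Lines of Lgals1, Lgals3, Anxa1, Anxa2, Anxa4 and Anxa5 rise and those of Lgals3bp and Lgals9 fall in 6 of 6 libraries.

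Genes that work with galectins and annexins were taken from 7 lists of 41 genes. Between TAM II and TAM I 16 could be tested, of which 6 rose and 3 fell, beside 30.1% of all genes called. All 3 tested S100 partners of annexins rose in TAM II: S100a10, the partner of annexin A2 (log2 fold change 3.31 ± 0.34), S100a11, a partner of annexin A1 (4.51 ± 0.30), and S100a6 (1.83 ± 0.26). Of 8 tested galectin counter-receptors, Cd44, the hyaluronan receptor (1.71 ± 0.29), and the integrin gene Itgb1 (0.50 ± 0.18) rose, and Mertk (-2.09 ± 0.22), a receptor tyrosine kinase for engulfment, Trem2 (-1.59 ± 0.17), a lipid receptor of microglia, and Havcr2 (-0.75 ± 0.22), the galectin-9 receptor, fell. Plaur, the urokinase receptor, rose (1.87 ± 0.27). The adjusted p of these 9 genes ran from 4.13e-08 to 0.0479. Between tumour-bearing and naïve libraries, 1 of 14 tested partners fell in microglia-like cells (Mertk, log2 fold change -1.09 ± 0.29, adjusted p = 0.0160), a smaller share than the 16.0% of all genes called there. In endothelial cells 1 of 7 rose (S100a11, 1.22 ± 0.35, adjusted p = 0.0441), beside 4.65% of all genes. By edgeR 0 of 6 were called in oligodendrocytes and 0 of 4 in astrocytes, beside 2.25% and 1.31% of all genes.

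Tumour cells were compared with the sum of all other cells of the same library. All 10 genes were tested: Lgals1 and Anxa1 were higher in tumour cells, Anxa3, Lgals3bp, Anxa5 and Anxa4 lower, and 4 did not pass, in a comparison in which 63.8% of all 13045 genes were called. Lgals1 was at 1935, 2912 and 3141 (lowest, median and highest) in tumour cells and at 513, 1070.2 and 1347 in other cells, a log2 fold change of 1.26 ± 0.12 (adjusted p = 6.17e-06). Anxa1 was at 214, 297 and 336 against 44.3, 142 and 213, a log2 fold change of 1.00 ± 0.19 (adjusted p = 0.000762). Both were higher in tumour cells in 6 of 6 libraries, and neither group overlapped the other.

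Anxa3 differed most, at 3.06 to 14.9 in tumour cells against 116 to 213 in the sum of other cells. Its log2 fold change was -4.37 ± 0.23, or 20.6-fold lower (adjusted p = 1.72e-07). Lgals3bp (-1.22 ± 0.11), Anxa5 (-1.10 ± 0.17) and Anxa4 (-0.88 ± 0.16) were each lower in 6 of 6 libraries. The values depended on which other cells were summed. With the myeloid cells left out of the sum, the direction turned for Lgals3, Lgals9, Anxa4 and Lgals3bp: Lgals3 had a log2 fold change of 1.53 ± 0.17 (adjusted p = 1.48e-05) in place of -0.46 ± 0.20 (adjusted p = 0.0599), Lgals9 of 0.96 ± 0.19 in place of -0.21 ± 0.15, Anxa4 of 0.66 ± 0.18 in place of -0.88 ± 0.16, and Lgals3bp of 0.26 ± 0.13 (adjusted p = 0.0934) in place of -1.22 ± 0.11. Lgals1, Anxa1, Anxa3 and Anxa5 kept direction and call.

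Of 27 tested partner genes 5 were higher and 15 lower in tumour cells, in the comparison that called 63.8% of all genes, so that the number called says little about these lists. Lgals7, a galectin of stratified epithelia, was among those higher, with a log2 fold change of 3.04 ± 0.33. The others were Lgalsl, Itgb1, S100a10 and S100a6, at 0.41 to 0.82. Of 6 genes of N-glycan branching, the sugars that galectins bind, 5 were lower, with Mgat5 at -2.41 ± 0.24.

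KO and WT were compared in tumour cells, TAM I and TAM II with stage as a block, to ask whether the genes depend on Acod1. By edgeR 0 of 10 genes were called in tumour cells, 0 of 6 in TAM I and 0 of 10 in TAM II, and DESeq2 called 0 in each. Over all genes tested 0.0146%, 0% and 0.109% were called. In tumour cells 3 of the 10 had an unadjusted p under 0.05, as did 885 of all 13684 genes, and 0 in TAM I or TAM II. These 3 were Anxa2, at 276 (WT early), 369.7 (WT intermediate) and 299 (WT late) against 581, 387 and 616 in KO (log2 fold change 0.77 ± 0.24, adjusted p = 0.602), Lgals3bp (0.52 ± 0.17, adjusted p = 0.614) and Anxa3 (0.93 ± 0.31, adjusted p = 0.647). Each of them was higher in KO tumour cells at 3 of 3 stages, and none passed the correction. In TAM II Lgals1 had the lowest log2 fold change, -0.49 ± 0.37, and Anxa2 the highest, 0.50 ± 0.51. Intervals of 2 standard errors ran from -1.22 to 0.25 for Lgals1 and from -0.52 to 1.53 for Anxa2. Differences of any size within these bounds remain compatible with the 3 pairs.

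Likeness to other genes was described over 77 sums of a class in a library, as Pearson's r of log2(CPM + 10) among 4402 genes with a mean of at least 50. Sums of 1 library share its depth and its free RNA, and sums of 1 class share its cells. Anxa2 was most like S100a11 (r = 0.92), Ahnak (0.87) and Crip1 (0.86), and Anxa3 most like Ctsh (0.85). Lgals3 was most like Cd44 (0.80), Lgals9 like Atf3 (0.80), Lgals1 like Tuba1c (0.77) and Lgals3bp like Pnp (0.70). Anxa1 was most like Anxa2 (0.76), the highest value between any of the 10 genes. Anxa5 was most like S100a11 (0.69), Anxa4 like Crip1 (0.69) and Anxa6 like Shisa5 (0.58). The lowest value between members of the 2 families was that of Lgals3bp and Anxa6 (0.16).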

How the data were processed

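Per the labels and the study's methods, Drop-seq libraries of naïve brain and tumour core were sequenced, and the authors deposited for each of the 8 libraries a table of raw UMI counts, genes by barcodes, made with the Drop-seq pipeline. The submitters' processing notes name bcl2fastq 2.0, STAR and the builds GRCm38 and mm10. How reads that fit several places were counted is not given in the sources used here, so that reads of Lgals1 and of its processed pseudogene may not be separable.

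In each library the 1000 barcodes of highest UMI count were taken, genes in at least 30 cells and cells with at least 1000 genes were kept, and 50 principal components of log2(CPM + 1), without the 10 genes, were embedded by tSNE (Rtsne 0.17, perplexity 50) and clustered by HDBSCAN (scikit-learn 1.9.0, at least 19 cells per cluster). Mixed myeloid clusters were divided with Leiden (leidenalg 0.10.2). The names come from fixed markers and may differ from the study's. Doublets were not removed, except in an alternative that scored them with Scrublet in scanpy 1.11.5. Counts were summed per class and library, with sums of at least 5 cells retained, and tested with edgeR 4.0.16 (R 4.3.3) by the quasi-likelihood test with TMM scaling, filterByExpr and Benjamini-Hochberg adjustment over all genes at 0.05. Genotype was a covariate in the comparison of tumour-bearing with naïve libraries, the library a block within tumour-bearing libraries, and stage a block for KO against WT. DESeq2 1.42.0 was an alternative. All tests are two-sided, a called gene is one with an adjusted p under 0.05, and the procedure was tested on simulated counts.

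Printed levels are unscaled by TMM. Depth limits them, since a sum of 17330 UMIs, the smallest among microglia-like sums, gives 57.7 CPM for each UMI. Exact binomial intervals on shares (scipy 1.17.1, Python 3.11.15) cover counting error only. All 10 genes were named in each comparison, partner genes by the lists' counts and by name where they passed, and the 3 most alike genes per member were considered in the description of likeness. The genes, the lists and the tests were chosen with earlier results of these data known. Protein sequences were not used here.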

Additional observations from a re-analysis of the deposited data

Results flagged for a closer look

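Among 44 sets of values of 1 gene in 1 class over the libraries of a condition, 4 held a library far from the others, where chance sets apart about 1 in 20. In microglia-like cells Anxa2 was at 135 CPM in the WT late library, against 0 to 47.2 in the other 5. In macrophage-like cells the WT intermediate library, with 16 such cells, was highest for Lgals3 at 4459 (961 to 1783 in the others), for Anxa1 at 448 (74.6 to 199) and for Anxa5 at 944 (379 to 555). The 3 values come from the same cells and are not independent.

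The tumour-bearing difference itself differed between cell types for 3 genes by the test of the interaction. On the log2 scale, the value in endothelial cells minus that in microglia-like cells was -2.01 for Lgals3bp and -1.47 for Anxa5, and the value in astrocytes minus that in microglia-like cells was -2.24 for Lgals1. DESeq2 called 0 of these differences.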

How the results depend on the processing

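No replicate numbers could serve as a block, since each group held 1 library and the labels give none. The library was a block for TAM II and tumour cells, and stage for KO against WT. The number of genes called stayed within 1.5 times the reported one outside the settings named here. In endothelial cells it was 5 in place of 3 with Leiden clustering and with at least 10 cells per sum, in oligodendrocytes 2 in place of 1 without a filter on low counts and with 500 genes per cell, and in astrocytes 1 with DESeq2, 1 without a filter and 2 with 500 genes per cell in place of 0. For the differences between cell types it was 0 with DESeq2 and 1 each with Leiden clustering, with the 10 genes used in clustering and with doublets removed, in place of 3. In the last 2 of these settings none of the 3 reported calls was kept. The 1 call there was that of Lgals1 between astrocytes and endothelial cells (edgeR adjusted p = 0.0344 and 0.0341). The causes were not tested.

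With 1 library left out at a time, the number called ran from 1 to 4 in microglia-like cells, 1 to 5 in endothelial cells, 0 to 1 in oligodendrocytes, 0 to 0 in astrocytes, 0 to 4 for differences between cell types, 6 to 8 for TAM II against TAM I and 6 to 7 for tumour cells, and was 0 throughout for KO against WT. The lowest values came without a naïve library in microglia-like and endothelial cells, and without the KO naïve, KO early or KO late library in oligodendrocytes. Differences between cell types fell to 0 without either naïve library and to 1 without the WT early or KO early library.

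Against other cells without myeloid cells, the direction in tumour cells reversed for Lgals3 (1.53), Lgals9 (0.96), Anxa4 (0.66) and Lgals3bp (0.26). Of 1642 alternative values for single genes, 53 were weaker, 14 stronger and 4 reversed. DESeq2's size factors moved the median of all genes by -0.20 to 0.35 on the log2 scale in the differences between cell types, and by at most 0.04 in the other comparisons. Genes with few UMIs could not be tested, which says nothing of their change. A gene could enter a test through the group where it was higher, so shares called and medians of the tested genes depend on this filter.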

Other observations

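Some cell classes that entered no comparison held high levels. In naïve brain, ciliated ependymal-like cells had the highest median of Anxa5, at 1324 CPM (1239.9 and 1408 in the 2 libraries), and of Anxa2, at 611 (553 and 669). Choroid plexus epithelial-like cells had Lgals1 at 439 (424 and 455) and Lgals3bp at 96.7. Of the tumour-infiltrating cells, a cluster of 60 dendritic-like cells had Lgals1 at 815, Lgals3 at 728 and Anxa2 at 856, with Lgals3bp at 40.8.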
